A study of Mus musculus with 7 samples.

Results

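Granulosa cells are the somatic cells that surround the oocyte inside each ovarian follicle. Here 9 genes that mark them were followed in ovaries depleted of granulosa cells, though not freed of them. The genes were taken from a list of granulosa identity genes, *Fshr*, *Cyp19a1*, *Foxl2*, *Amh*, *Inha*, *Inhba*, *Inhbb*, *Bex1* and *Aard*. All 9 were found among the 52230 genes to which the deposited transcripts could be matched. The tissue came from progesterone receptor-null mice (KO; *Pgr* -/-, line PRKO, allele Pgrtm1Bwo) and their wildtype (WT; *Pgr* +/+) littermates, which lack or keep the receptor in every cell from conception. All females were 21–27 days old and received 5 IU of PMSG, which drives follicle growth, and 44 h later 5 IU of hCG, which stands in for the LH surge. Ovaries were taken 8 h post-hCG and punctured repeatedly to release granulosa cells, and the remaining ovary was sequenced as bulk tissue from pools of 3 mice, giving 4 WT libraries (replicates 1 to 4) and 3 KO libraries (replicates 2 to 4).

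In a growing follicle, FSH binds its receptor on granulosa cells and raises cAMP, and protein kinase A then drives aromatase, which turns the androgens made by theca cells into oestrogen. The same cells secrete inhibin, a dimer of the alpha subunit with a beta A or beta B subunit that lowers FSH release from the pituitary, as well as activins, which are dimers of beta subunits alone, and anti-Müllerian hormone (AMH), which restrains the recruitment of further follicles. After the LH surge, the mural granulosa cells of the ovulating follicle turn from oestrogen to progesterone synthesis, whereas granulosa cells of smaller follicles keep their earlier programme.

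The promoters of *Cyp19a1* and *Fshr* are shown because they belong to the aromatase and FSH receptor genes described first and hold a short motif of a factor known from this cell type. Each is the 250 bases before the GENCODE M39 start of the gene's most abundant transcript in GRCm39, written 5′ to 3′ on the gene's strand, for *Cyp19a1* at chr9:54100807-54101056 (minus strand) and for *Fshr* at chr17:89508140-89508389 (minus strand). Capitals mark AAGGTCA, the site of the nuclear receptors NR5A1 and NR5A2, in the first promoter and the E-box CACGTG in the other.
Cyp19a1: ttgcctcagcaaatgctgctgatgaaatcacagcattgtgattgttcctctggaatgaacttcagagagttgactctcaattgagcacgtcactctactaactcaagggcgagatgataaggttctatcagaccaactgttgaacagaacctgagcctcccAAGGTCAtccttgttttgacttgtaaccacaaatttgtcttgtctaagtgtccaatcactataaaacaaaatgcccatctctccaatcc
Fshr: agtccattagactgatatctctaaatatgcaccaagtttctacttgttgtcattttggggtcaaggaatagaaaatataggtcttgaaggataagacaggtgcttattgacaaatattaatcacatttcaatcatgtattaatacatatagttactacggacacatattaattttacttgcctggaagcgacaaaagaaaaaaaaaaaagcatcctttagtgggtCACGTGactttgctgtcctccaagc

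On both strands, 5 motifs were searched in the 250 bases upstream of 21770 protein-coding genes and of 8 of the 9 granulosa genes. AAGGTCA was held by 3.93% of all these promoters and by 1 of the 8, *Cyp19a1*, with its first base 89 bases before the start. The palindrome CACGTG was held by 6.26% of promoters and here by *Fshr* alone, 25 bases before the start. The GATA letters AGATAA were held by 9.61% of promoters and by *Aard* alone, as TTATCT. For each motif only these exact letters were counted, so a site with other letters would be missed. Neither the cAMP response element TGACGTCA (1.70% of promoters) nor the forkhead letters TGTTTAC (2.72%) was present in the window of any of the 8 genes. A match describes letters and not binding, and the deposited transcript had the same length as its M39 version for 2 of the 8 genes, so other starts may have shifted between annotation releases.

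Total reads assigned to transcripts ranged from 47372446 to 63416875 per library. WT replicate 1 stood apart in its mitochondrial share, at 7.17% of reads beside 4.34% to 5.55% in the other libraries. Fits that leave out this library are given below for several genes, but the part of the mitochondrial share itself was not tested. *Pgr*, the deleted gene, was at 4.22 to 8.04 TPM (Salmon's level scaled to transcript length and library total) in WT and 1.54 to 2.19 TPM in KO, so each library stood on the side its label gives. The stromal collagen gene *Col3a1* was at 1289 to 1622 TPM and the matrix gene *Dcn* at 316 to 526 TPM. Granulosa transcripts were nonetheless readily measured: the low-count filter kept every one of the 9 genes, whose summed level was 2742, 2103, 2781 and 1924 TPM in WT replicates 1 to 4 and 2438, 2564 and 3208 TPM in KO replicates 2 to 4. The highest sum was in KO replicate 4 and the lowest in WT replicate 4, and the groups overlapped. In such bulk tissue, fewer granulosa cells and less RNA per granulosa cell cannot be told apart.

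By median TPM over the 7 libraries the order of levels was *Inha* (2206), *Inhba* (86.2), *Amh* (76.5), *Inhbb* (72.3), *Foxl2* (40.5), *Cyp19a1* (28.2), *Bex1* (22.1), *Aard* (19.5) and *Fshr* (13.2). *Inha* ranked 36 among all 52230 genes by mean TPM, and its lowest library (1669 TPM) was far above the highest library of *Inhba* (133 TPM). All other neighbours in this order had overlapping ranges, although *Aard* was above *Fshr* within each of the 7 libraries.

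**Figure D1:**
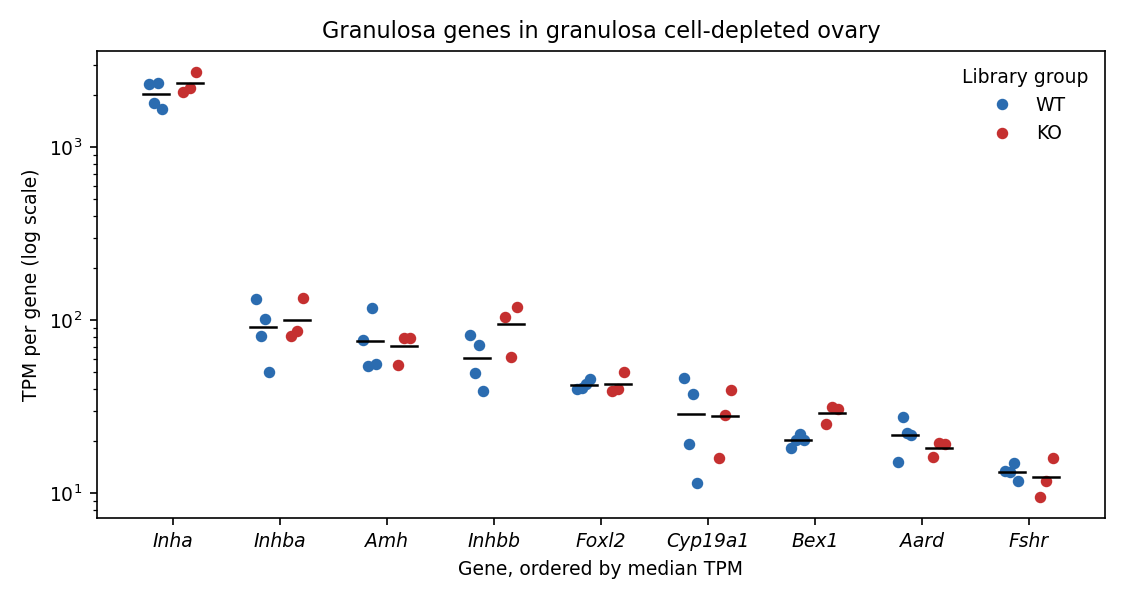
TPM per library (log axis) of the 9 granulosa genes, ordered from left to right by median TPM, with WT libraries in blue (n = 4), KO libraries in red (n = 3) and horizontal bars at the group means. *Inha* sits at 1669 to 2721 TPM, above all other genes, and *Bex1* is the gene whose red points (25.0 to 31.3 TPM) all lie above its blue points (18.2 to 22.1 TPM).

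To ask whether granulosa transcripts left in the tissue differed with the loss of PGR, KO libraries were compared with WT libraries in edgeR's quasi-likelihood test across 19233 genes. A gene was called when its Benjamini–Hochberg adjusted p was at most 0.05 and its absolute log2 fold change at least 0.5. None of the 9 genes was called by edgeR, which called 2 genes in all (0.0104% of those tested), and none by DESeq2, which called 144 (0.749%). The deleted gene *Pgr* itself missed the edgeR threshold (log2 fold change −1.72, edgeR adjusted p = 0.0544), although DESeq2 called it (adjusted p = 1.25e-14). A missing edgeR call therefore does not show that a gene was unchanged. At an unadjusted p under 0.05 there was 1 of the 9, *Bex1*, in either tool, beside 8.94% of all genes in edgeR (3.84% of all genes with KO higher) and 8.71% in DESeq2. Fitted changes were below 0 for 5 genes and above 0 for 4, with a median log2 fold change of −0.02, beside −0.00101 over all genes tested.

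**Figure D2:**
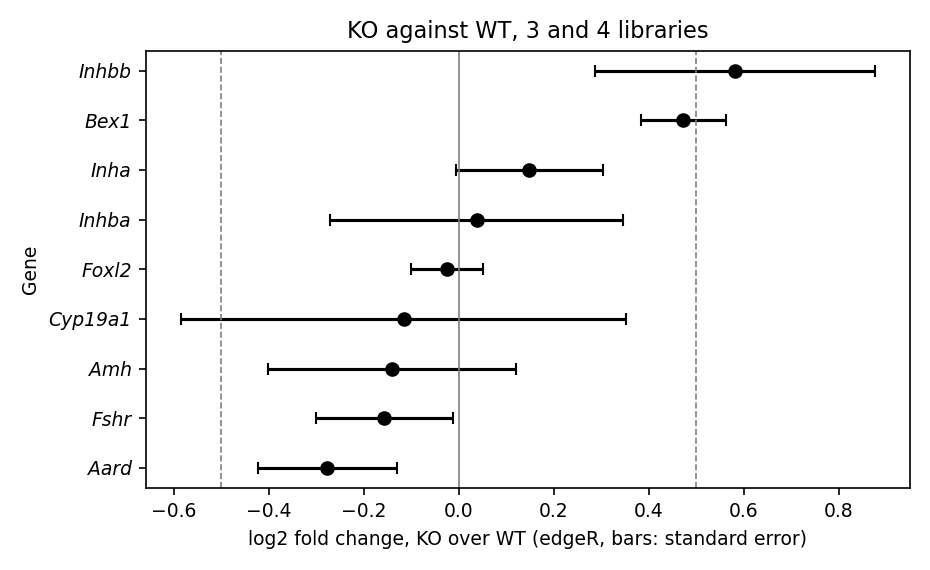
Log2 fold change of KO over WT for the 9 granulosa genes in edgeR's quasi-likelihood fit, with bars for the standard error and dashed lines at the threshold of 0.5 in either direction. *Inhbb* (0.58) and *Bex1* (0.47) lie farthest to the right, and the bar of *Cyp19a1* is the widest (SE 0.469).

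*Fshr* encodes the FSH receptor, the entry point of FSH signalling. Its level was 13.4, 13.2, 14.9 and 11.7 TPM in WT replicates 1 to 4 and 9.55, 11.7 and 15.9 TPM in KO replicates 2 to 4. The KO group held both the lowest and the highest library, and the groups overlapped. Its log2 fold change was −0.16 (SE 0.144, edgeR adjusted p = 0.799), and it was −0.022 without KO replicate 2 and −0.33 without KO replicate 4 (edgeR adjusted p = 0.36).

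Aromatase, the product of *Cyp19a1*, makes oestrogen from androgen. *Cyp19a1* was at 46.2, 19.2, 37.5 and 11.4 TPM in WT replicates 1 to 4 and at 15.9, 28.2 and 39.5 TPM in KO replicates 2 to 4. Both extremes were WT libraries, and replicates of the same genotype differed by up to 4.04 times. Between the lowest and the highest library its CPM (reads scaled to library size, not to length) differed by 4.44 times, a span exceeded by 3.29% of the genes tested. Against this spread the log2 fold change of −0.12 (SE 0.469, edgeR adjusted p = 0.965) had no stable direction. It became 0.29 when WT replicate 1, the library with the high mitochondrial share, was left out. Without WT replicate 4 it was −0.38, and without KO replicate 4 it was −0.40.

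Nearly all of the *Cyp19a1* TPM fell on transcripts that start at the promoter printed above. The main transcript took 73.8% to 94.4% of the gene's TPM per library and a second coding transcript with the same start 1.9% to 23.5%. A transcript with a retained intron took 1.01% to 4.2%. Both annotated transcripts that start farther upstream were assigned 0 reads in every library, which at 3 counts allows between 0.0754% and 0.28% of the gene's reads, counting error only.

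*Foxl2* encodes the forkhead factor that keeps ovarian somatic cells in the granulosa fate. It stood at 40.2, 40.5, 42.8 and 45.9 TPM in WT replicates 1 to 4 and at 39.2, 39.8 and 50.0 TPM in KO replicates 2 to 4. The groups overlapped, and the lowest and the highest library were both KO. In contrast to *Cyp19a1*, the level hardly moved between libraries: the CPM span was 1.18 times, and 79.6% of tested genes had a wider one. The log2 fold change was −0.02 (SE 0.0752, edgeR adjusted p = 0.955). The antisense gene *Foxl2os*, which overlaps the first bases of *Foxl2* on the other strand, had 3830 to 5293 reads per library and a log2 fold change of 0.19 (edgeR adjusted p = 0.674).

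AMH is made by granulosa cells of small growing follicles. *Amh* was at 76.5, 54.0, 117 and 55.6 TPM in WT replicates 1 to 4 and at 55.2, 79.1 and 79.0 TPM in KO replicates 2 to 4. All KO libraries fell inside the WT range, whose upper end was set by WT replicate 3. The log2 fold change was −0.14 (SE 0.262, edgeR adjusted p = 0.916) and turned to 0.12 without WT replicate 3.

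*Inha* encodes the alpha subunit that is found in every inhibin and in no activin. Its level was 2317, 1798, 2350 and 1669 TPM in WT replicates 1 to 4 and 2092, 2206 and 2721 TPM in KO replicates 2 to 4. KO replicate 4 was the highest library, but the other KO libraries lay inside the WT range. For *Inha* the log2 fold change was 0.15 (SE 0.154, edgeR adjusted p = 0.827), and it was 0.27 without WT replicate 1 and 0.064 without WT replicate 4. *Obsl1* overlaps the start of *Inha* in the M39 annotation and was itself abundant, with 17749 to 25287 reads per library. The *Inha* transcript used for quantification was 1475 bases long, beside 5157 bases in M39. Whether it reached the overlap, and so whether the assignment of reads was affected, was not tested.

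The beta A subunit, shared by inhibin A and activin A, is the product of *Inhba*. *Inhba* was at 133, 80.8, 102 and 50.1 TPM in WT replicates 1 to 4 and at 80.7, 86.2 and 133 TPM in KO replicates 2 to 4. WT replicate 1 and KO replicate 4 were about equally high, WT replicate 4 was lowest, and the groups overlapped. Its log2 fold change was 0.04 (SE 0.309, edgeR adjusted p = 0.986), and it was −0.16 without WT replicate 4 and 0.34 without WT replicate 1.

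*Inhbb* encodes the beta B subunit of inhibin B and activin B. It was at 82.0, 49.3, 72.3 and 38.8 TPM in WT replicates 1 to 4 and at 104, 61.6 and 119 TPM in KO replicates 2 to 4. KO replicates 2 and 4 were above every WT library, whereas KO replicate 3 was inside the WT range. The means were 60.6 ± 20.0 TPM in WT (SD, n = 4) and 94.8 ± 29.7 TPM in KO (SD, n = 3). The log2 fold change of 0.58 was the largest of the 9 genes, but with an SE of 0.295 it did not pass the test (edgeR adjusted p = 0.604, unadjusted p = 0.0812).

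Ratios of the subunits within a library do not depend on how libraries are scaled to each other, and were compared by two-sided exact permutation tests over all 35 splits, whose smallest possible p is 0.0286. On the TPM scale the *Inhba* to *Inhbb* ratio was 1.62, 1.64, 1.40 and 1.29 in WT replicates 1 to 4 and 0.779, 1.40 and 1.12 in KO replicates 2 to 4. KO replicate 2 was the only library with more *Inhbb* than *Inhba*, and KO replicate 3 lay within the WT range. The mean log2 ratio was 0.57 ± 0.17 in WT (SD, n = 4) and 0.10 ± 0.43 in KO (SD, n = 3), a difference of −0.47 with an exact permutation p of 0.0571, or 0.171 after adjustment over the 3 ratios. It was −0.24 without KO replicate 2 and −0.67 without KO replicate 3. The *Inhbb* to *Inha* ratio differed by 0.44 on the log2 scale (exact permutation p = 0.171, adjusted 0.257), by 0.28 without KO replicate 2 and by 0.69 without KO replicate 3, and the *Inhba* to *Inha* ratio by −0.03 (exact permutation p = 0.886, adjusted 0.886), and all 3 ratios overlapped between the groups.

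**Figure D3:**
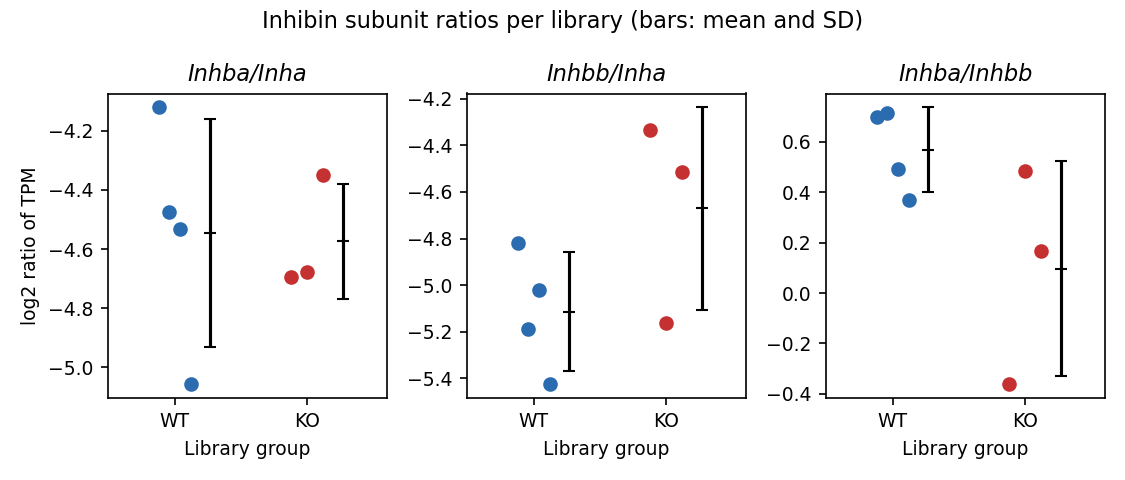
Log2 ratios of TPM between inhibin subunit genes in each library, with WT points in blue (n = 4), KO points in red (n = 3) and black bars for the mean and SD; the vertical axes differ between panels and do not start at 0. For *Inhba*/*Inhbb*, KO replicate 3 overlaps WT while KO replicates 2 and 4 lie below all WT points.

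*Bex1* encodes a small adaptor protein of the X-linked brain-expressed gene family. Its level was 18.2, 20.2, 22.1 and 20.3 TPM in WT replicates 1 to 4 and 25.0, 31.3 and 30.6 TPM in KO replicates 2 to 4. Every KO library was above every WT library, which no other of the 9 genes showed, beside 9.05% of all tested genes whose groups did not overlap in either direction and 3.93% with KO above WT. The means were 20.2 ± 1.57 TPM in WT (SD, n = 4) and 29.0 ± 3.47 TPM in KO (SD, n = 3). The log2 fold change was 0.47 (SE 0.0898) in edgeR's quasi-likelihood test (unadjusted p = 0.000551, adjusted p = 0.18). DESeq2 gave the same log2 fold change of 0.47 with an adjusted p of 0.00144, which passes the p threshold while the change remains under the fold threshold of 0.5.

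The neighbouring family members, chosen after their values were seen, were compared because similar sequences can share reads. *Bex4*, which is also among the further granulosa genes described next, was at 120, 186, 150 and 181 TPM in WT replicates 1 to 4 and at 208, 203 and 259 TPM in KO replicates 2 to 4. Its KO libraries too were all above its WT libraries, as for 3.93% of all genes tested. For *Bex4*, edgeR fitted a change of 0.45 on the log2 scale (SE 0.122, adjusted p = 0.319). *Bex2* had a log2 fold change of 0.13 (edgeR adjusted p = 0.843) and *Bex3* of 0.05 (edgeR adjusted p = 0.834), and neither was called. Whether reads were shared within the family was not tested.

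*Aard* encodes a small alanine- and arginine-rich protein. It was at 15.2, 27.6, 22.4 and 21.6 TPM in WT replicates 1 to 4 and at 16.2, 19.5 and 19.2 TPM in KO replicates 2 to 4. KO libraries lay below 3 of the 4 WT libraries, but WT replicate 1 was the lowest of all. A log2 fold change of −0.28 was fitted (SE 0.147, edgeR adjusted p = 0.623), which was −0.38 without WT replicate 1 and −0.16 without WT replicate 2.

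The 9 genes did not move as 1 block over the libraries. In CPM, WT replicate 1 and KO replicate 4 each had 7 of the 9 genes above the gene's own median and WT replicate 3 had 6, whereas the other 4 libraries had 1 or 2. WT replicate 4 was the lowest library for 4 genes and KO replicate 4 the highest for 4. The libraries at either end thus came from WT as well as from KO. The median span between lowest and highest CPM was 1.64 times for the 9 genes, beside 1.37 times for all tested genes.

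As a description over 7 libraries that share tissue, depth and scaling, the Pearson r of log2 CPM was 0.942 between *Cyp19a1* and *Inhba*, 0.915 between *Inha* and *Inhba*, and 0.854 between *Inhbb* and *Inha*. *Amh* and *Fshr* were each most like *Cyp19a1* (r = 0.791 and 0.766). *Foxl2* was nearest to *Fshr* (r = 0.513) and *Bex1* to *Inhbb* (r = 0.416). *Aard* stood apart, with no r above 0.150 (to *Fshr*) and −0.755 to *Inhbb*. Among 10408 other genes with a mean of at least 10 CPM, those most like the mean of the 9 were *Prkar2b* (r = 0.994), which encodes a regulatory subunit of protein kinase A, then *Pabir2* (0.992), *Kif15* (0.979), which encodes a mitotic kinesin, *Zbtb40* (0.967) and *St3gal5* (0.964), which encodes the ganglioside GM3 synthase. *Prkar2b* was at 789, 577, 739 and 521 CPM in WT replicates 1 to 4 and at 623, 689 and 792 CPM in KO replicates 2 to 4. By the rule that chose it, it followed the mean of the 9 genes, in which genes with a wide span weigh most. It did not follow each gene: *Prkar2b* was lowest in WT replicate 4, where *Foxl2* was near its top (94.1 CPM). The log2 fold change of *Prkar2b* was 0.09 (edgeR adjusted p = 0.899).

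**Figure D4:**
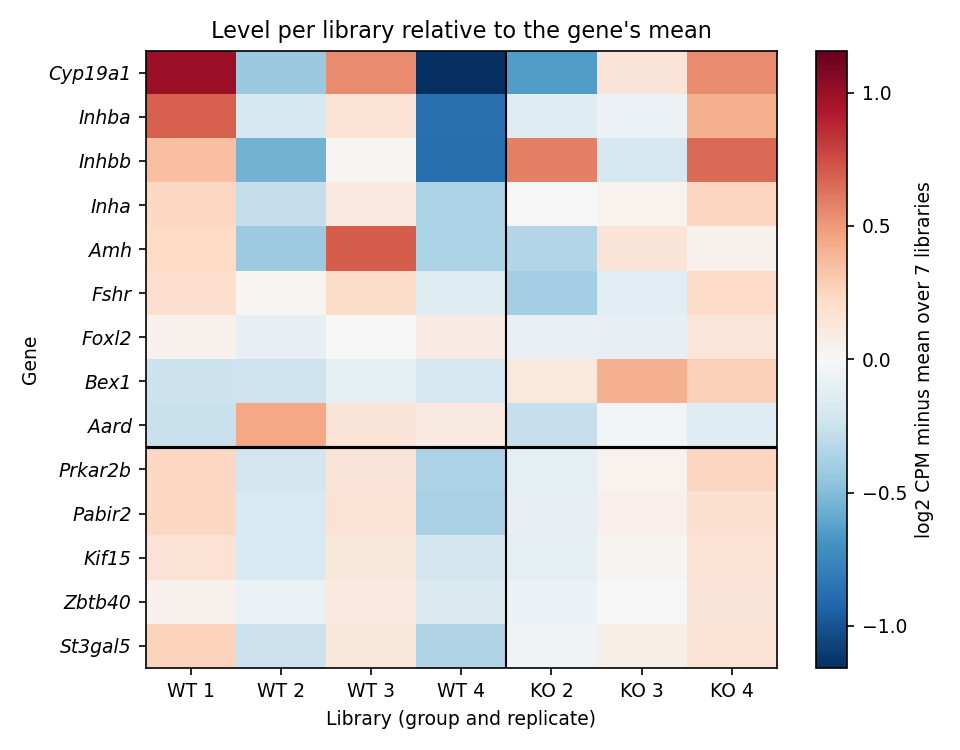
Log2 CPM of each gene in each library minus the gene's mean over the 7 libraries (red above, blue below), for the 9 granulosa genes (above the thick line) and the 5 genes most like their mean (below it). WT replicate 1 and KO replicate 4 are mostly red and WT replicate 4 mostly blue, while *Bex1* is blue in all WT and red in all KO libraries and *Aard* follows neither course.

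Among 22 further granulosa genes, edgeR fitted 8 lower and 14 higher, with a median log2 fold change of 0.09. Neither edgeR nor DESeq2 called any of them. Only 1, *Bex4*, had an unadjusted p under 0.05 in edgeR, beside 8.94% of all genes tested. Their summed level was 2064 to 2339 TPM in WT and 2245 to 2920 TPM in KO. The lowest change was that of *Kitl*, the ligand of the KIT receptor on the oocyte (−0.16, edgeR adjusted p = 0.747), and the highest that of *Bex4*. The gap junction gene *Gja1* was the most abundant, at 503 to 771 TPM. *Hsd17b1*, whose enzyme acts beside aromatase in oestradiol synthesis, was at 131, 91.5, 120 and 72.3 TPM in WT replicates 1 to 4 and at 119, 111 and 174 TPM in KO replicates 2 to 4, lowest in WT replicate 4 and highest in KO replicate 4, and its fitted change was 0.32 on the log2 scale (edgeR adjusted p = 0.725).

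Partners of inhibin, activin and AMH were covered by 23 genes, of which 21 were tested, 10 fitted lower and 11 higher, with a median log2 fold change of 0.04 and none called by edgeR or DESeq2. At an unadjusted p under 0.05 in edgeR there was 1, *Acvr1*, beside 8.94% of all genes tested. *Acvr1* encodes the type I receptor shared by BMP and AMH signals (log2 fold change −0.32, edgeR adjusted p = 0.363). The activin-binding protein gene *Fst* was the most abundant, at 90.9 to 134 TPM. *Amhr2*, the AMH type II receptor, was at 44.1 to 53.9 TPM in WT and 55.3 to 59.1 TPM in KO, without overlap on this scale. In CPM the groups overlapped, with WT replicate 3 (57.6 CPM) above KO replicate 4 (55.6 CPM). The log2 fold change of *Amhr2* was 0.15 (edgeR adjusted p = 0.568). *Acvr1c*, an activin-type receptor gene, had the lowest change (−0.58, edgeR adjusted p = 0.676) at levels under 0.35 TPM, and *Smad9*, an intracellular mediator of the BMP branch, the highest (0.23, edgeR adjusted p = 0.666).

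Of 17 genes of FSH response and oestrogen synthesis, 10 were fitted lower and 7 higher (median log2 fold change −0.02), and none was called by edgeR or DESeq2 or had an unadjusted p under 0.05 in edgeR. *Gnas*, the stimulatory G protein subunit downstream of FSHR, was the most abundant at 1031 to 1141 TPM. The changes ran from −0.38 for the LH receptor gene *Lhcgr* (edgeR adjusted p = 0.609) to 0.34 for the oestrogen sulphotransferase gene *Sult1e1* (edgeR adjusted p = 0.775). In the network around FOXL2, 15 of 16 genes were tested, with 7 lower and 8 higher (median 0.01). None was called by edgeR and 1 had an unadjusted p under 0.05, beside 8.94% of all genes tested. The lowest change in this network was that of *Bmp2* (−0.31, edgeR adjusted p = 0.715). *Ctnnb1*, the gene of beta-catenin, was the most abundant at 519 to 582 TPM. *Sox9*, the testis-promoting factor that FOXL2 is known to repress, was at 1.77, 1.96, 1.43 and 1.64 TPM in WT replicates 1 to 4 and at 2.99, 2.82 and 2.29 TPM in KO replicates 2 to 4. Every KO library was above every WT library, as for 3.93% of all genes tested, and the level was low. The log2 fold change of 0.63 (SE 0.159) was called by DESeq2 (adjusted p = 0.0208) and not by edgeR (adjusted p = 0.31). *Dmrt1*, another testis factor, was at 0 TPM in every library and so was not tested.

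Markers of other cells in the tissue were read beside the granulosa genes, and edgeR called none of them. DESeq2 called 3, the smooth muscle genes *Des* (log2 fold change −0.78) and *Cnn1* (−0.70) and the surface epithelium gene *Upk3b* (−1.07). Summed over 10 theca genes, the level was 4914 to 5804 TPM in WT and 3713 to 4776 TPM in KO. All 10 were fitted lower (median log2 fold change −0.38), from *Aldh1a1* (−0.73, edgeR adjusted p = 0.428) to *Hhip* (−0.23, edgeR adjusted p = 0.608). *Hsd3b1* was the most abundant at 2107 to 3219 TPM, and with *Star* it held most of each sum. *Star* and *Lhcgr* are also among the hCG-responding genes given below, and *Tcf21* among the stromal fibroblast genes. On its own, *Cyp17a1* overlapped between the groups (430 to 1082 TPM in WT, 390 to 644 TPM in KO). *Tcf21* did not (118 to 133 TPM and 89.9 to 111 TPM), like 9.05% of all genes tested. At an unadjusted p under 0.05 in edgeR there were 3 of these 10 genes, beside 8.94% of all genes tested in either direction. The 8 smooth muscle and pericyte genes summed to 1507 to 1789 TPM in WT and 1105 to 1459 TPM in KO, all 8 fitted lower (median −0.34) and 5 with an unadjusted p under 0.05. The 8 surface epithelium genes were also all fitted lower (median −0.49), but their sums overlapped (31.4 to 60.2 TPM in WT, 27.0 to 43.1 TPM in KO). Over all genes tested the median log2 fold change was −0.00101. Genes of the same list can move together over the libraries, and no list was tested as a whole.

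The 12 oocyte genes were all fitted higher (median log2 fold change 0.29), at 315 to 448 TPM in WT and 413 to 568 TPM in KO. Of them, 5 had an unadjusted p under 0.05 in edgeR, beside 3.84% of all genes with KO higher. The 6 red blood cell genes were also all fitted higher (median 0.24), at 1148 to 1472 TPM in WT. Their KO sums were 1224, 2186 and 1302 TPM in replicates 2 to 4, so only KO replicate 3 was above the WT range. Sums overlapped for 10 stromal fibroblast genes (3073 to 4175 TPM in WT, 3238 to 3594 TPM in KO; 9 fitted lower), 8 endothelial genes (366 to 399 TPM and 355 to 385 TPM; 7 lower) and 8 leukocyte genes (39.02 to 44.5 TPM and 38.4 to 52.7 TPM; 3 lower). All the defining markers of these cell types were above the filter, and their part in the changes of *Bex1*, *Bex4* and *Sox9* was not tested.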

How the data were processed

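The authors quantified paired-end 100 bp stranded mRNA reads with Salmon (version not given in the sources used here) against the GENCODE M26 mouse transcriptome on GRCm39, and deposited estimated counts, TPM and effective lengths for 139225 transcripts per library. By Ensembl identifier, 137570 transcripts (98.8%; 99.37% to 99.4% of reads) were matched to GENCODE M39. Estimated counts were summed per gene and rounded, and TPM were summed. Whether Salmon used strand is not given in the sources used here.

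Differences were tested with edgeR 4.0.16 in R 4.3.3 (TMM, filterByExpr, glmQLFit with its legacy default, glmQLFTest), with DESeq2 1.42.0, limma 3.58.1, other filters and scalings, transcript length offsets, a replicate block and leaving out each library as alternatives. Depth leaves counting error small beside replicate differences (common coefficient of variation 0.127). Replicates are pools of different mice. The pipeline was tested on simulated data. The 9 genes, the lists and the tests were chosen with earlier results of these data known. The rule for naming genes took, from each list, called genes, the lowest and highest change and the most abundant gene, and by likeness the 5 nearest genes; most cell type lists are given by sums and counts only. *Hsd17b1*, *Amhr2*, *Foxl2os*, *Obsl1*, *Acvr1*, *Dmrt1*, *Cnn1*, *Bex2*, *Bex3*, *Col3a1*, *Dcn*, *Cyp17a1*, *Tcf21*, *Star*, *Sfrp4*, *Areg*, *Btc*, *Ptx3*, *Npr2*, *Ereg*, *Tnfaip6*, *Ptgs2*, *Adamts1*, *Parm1* and *Slc38a3* were chosen after their values were seen. For 1 of the 9 genes the promoter is not reported here.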

Additional observations from a re-analysis of the deposited data

How the results depend on the processing

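None of the 9 genes was called in any of the 19 alternatives. The count of genes called over all genes, 2 in edgeR, was 144 with DESeq2, 7 with legacy=FALSE, 36 with no filter, 6 with at least 10 counts in every library, and 1 to 4 when each library was left out in turn. The number of calls thus changed with the tool and the filter on the same 7 libraries. With a replicate block it was 26 in edgeR and 187 in DESeq2 (the latter chosen after seeing the data). Whether the numbers pair the samples cannot be told from these values, as every r was small. Same-numbered libraries deviated from their group means with r = −0.0131, 0.106 and 0.0846. KO replicate 2 was nearest to WT replicate 4 (0.0381). KO replicate 3 was nearest to WT replicate 3, with WT replicate 1 close behind (0.0975). KO replicate 4 was nearest to WT replicate 4, with WT replicate 2 close behind (0.0684). Over the pathway and cell type lists, 5 genes were called by DESeq2 and 3 with the replicate block in edgeR.

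*Cyp19a1* reversed to 0.038 with limma-voom, 0.061 with limma on log2(TPM + 1) and 0.34 with the replicate block in edgeR or DESeq2, and ran from −0.40 to 0.29 with a library left out. *Foxl2* was 0.016 with limma on TPM and −0.10 to 0.021 with a library left out. Leaving out libraries gave −0.28 to 0.12 for *Amh*, −0.16 to 0.34 for *Inhba* and −0.20 to 0.11 for the log2 *Inhba* to *Inha* ratio, which was 0.11 within replicate numbers (replicate block). The log2 *Inhba* to *Inhbb* ratio ran from −0.67 to −0.24 and the *Inhbb* to *Inha* ratio from 0.28 to 0.69. The cause was not tested. Over all alternatives *Bex1* ranged from 0.41 to 0.54 (adjusted p 0.00144 to 0.499 across edgeR, DESeq2 and limma), *Inhbb* from 0.42 to 0.82, *Inha* from 0.06 to 0.27, *Fshr* from −0.33 to −0.02 and *Aard* from −0.38 to −0.16.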

Other observations

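Of 18 genes that respond to hCG in follicle cells, a few abundant ones, *Cyp11a1*, *Sfrp4* and *Star*, made up most of the summed level. The 18 genes summed to 5901, 7865, 7288 and 9257 TPM in WT replicates 1 to 4 and to 6295, 6602 and 7654 TPM in KO replicates 2 to 4. WT replicate 4, where the 9 granulosa genes had their lowest sum, was the highest in this sum, and WT replicate 1 was the lowest. Single genes of the list did not share 1 order: *Areg* (8.16 TPM), *Btc* (22.7 TPM), *Has2* (2.53 TPM), *Ptx3* (15.5 TPM) and *Npr2* (49.7 TPM) were at their lowest in WT replicate 4, as the granulosa sum was. By contrast, *Ereg*, *Tnfaip6*, *Ptgs2* and *Adamts1* were lowest in KO replicate 4. *Lhcgr*, *Parm1* and *Slc38a3*, like *Star* and *Cyp11a1* below, were highest in WT replicate 4. *Star*, which moves cholesterol into mitochondria, was at 601, 940, 659 and 1404 TPM in WT replicates 1 to 4 and at 643, 608 and 667 TPM in KO replicates 2 to 4. WT replicate 4 was the highest library and the groups overlapped. *Cyp11a1*, the first enzyme of steroid synthesis and the most abundant of the list, was at 3693 TPM in WT replicate 1 and 5606 TPM in WT replicate 4, with the KO libraries between them.

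Of these 18 genes, 11 were fitted lower and 7 higher in KO, and edgeR called none, with 3 lower and 2 higher at an unadjusted p under 0.05. Among all genes tested, 8.94% reached that p in either direction. The lowest change was that of *Snap25*, a vesicle fusion gene (log2 fold change −1.04, adjusted p 0.314 in edgeR and 0.0101 in DESeq2, which called it), and the highest that of the hyaluronan synthase gene *Has2* (0.66, adjusted p 0.377 in edgeR).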
